A study of Mus musculus with 2 samples.

Results

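Chemokine receptors were described here across the total RNA of mouse blood neutrophils, as 9 listed genes (Cxcr2, Cxcr4, Cxcr5, Cxcr3, Ccr1, Ccr2, Ccr6, Ccr7 and Cx3cr1) out of 55536 annotated genes. The genes were taken by symbol, by a rule that sets no threshold on a measured value, from a list drawn up with earlier results of these data known. The RNA came from neutrophils, isolated as primary cells from the peripheral blood of adult C57BL/6J mice aged 5 to 6 weeks, and was sequenced in 2 libraries numbered as biological replicates 1 and 2. Both libraries form a single untreated group with no genetic change named in the labels, and there is no second condition to compare. They carry 1 donor identifier and no recorded sex, and whether each comes from 1 animal or a pool is not given in the sources used here, so the spread between them may be technical.

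Chemokine receptors are seven-pass membrane proteins that couple to inhibitory G proteins and steer leukocytes along gradients of secreted chemokines. In neutrophils, Cxcr2 draws the cell out of the marrow and into inflamed tissue, while Cxcr4 holds it in the marrow and returns aged cells there. Other members guide other leukocytes: Cxcr5, Ccr7 and Ccr6 take part in the homing of B cells and other lymphocytes, Ccr2 and Cx3cr1 mark the classical and patrolling monocytes, and Cxcr3 marks activated T cells and natural killer cells.

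The coding sequences of the members are related, and a stretch known for its conservation lies around the Asp-Arg-Tyr codons at the inner end of the third membrane segment, where the receptor meets its G protein. Those 45 bases are shown for each member because they give the family its common signature and show how far the members differ in sequence. They were read from the GENCODE M21 transcripts on GRCm38, run 5′ to 3′ on the coding strand, and have the Asp-Arg-Tyr codons in capitals.
Cxcr2, chr1:74158763-74158807, plus strand: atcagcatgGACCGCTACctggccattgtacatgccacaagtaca
Cxcr4, chr1:128589485-128589529, minus strand: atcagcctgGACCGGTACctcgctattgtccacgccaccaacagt
Ccr1, chr9:123964069-123964113, minus strand: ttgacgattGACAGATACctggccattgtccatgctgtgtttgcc
Cxcr5, chr9:44513882-44513926, minus strand: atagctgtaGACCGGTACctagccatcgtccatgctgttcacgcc
Ccr7, chr11:99145603-99145647, minus strand: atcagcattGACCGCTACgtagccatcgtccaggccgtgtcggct
Ccr6, chr17:8256355-8256399, plus strand: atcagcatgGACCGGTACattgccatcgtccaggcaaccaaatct
Ccr2, chr9:124106123-124106167, plus strand: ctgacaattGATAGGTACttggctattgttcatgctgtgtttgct
Cx3cr1, chr9:120051921-120051965, minus strand: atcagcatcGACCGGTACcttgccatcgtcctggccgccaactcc
Cxcr3, chrX:101732581-101732625, minus strand: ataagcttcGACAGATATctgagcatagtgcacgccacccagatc
The closest pair in this stretch was Ccr6 and Cx3cr1, which differed at 7 of 45 bases, followed by Ccr1 and Ccr2 at 8. Cxcr3 and Ccr2 differed most, at 26 bases. Over the whole coding sequence the closest pair was Ccr1 and Ccr2, at 61.2% identical bases in a global alignment, and the most distant pair was Cxcr5 and Cx3cr1. Ccr1, Ccr2, Cx3cr1 and Cxcr5 all lie on chromosome 9, Cxcr2 and Cxcr4 on chromosome 1, Ccr6 on 17, Ccr7 on 11 and Cxcr3 on X.

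Of the 9 members, 8 were detected, which here means that each library gave at least 1 TPM (transcript abundance per length, scaled to a fixed library total). The share of all nuclear protein-coding genes detected by the same rule was 34.9%. The median level of the members was 14.9 TPM in replicate 1 and 14.03 TPM in replicate 2, while that of all 22015 nuclear protein-coding genes was 0.12 and 0.11 TPM. The libraries held 22646991 and 21471673 expected counts. Protein-coding genes held 72.6% and 71.5% of these counts but only 8.81% and 8.35% of the TPM, so the TPM of every member is small against the full scale. In bulk RNA, fewer cells of a type and less RNA per cell cannot be told apart.

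Cxcr2 and Cxcr4 stood well above the other members. Cxcr2, the receptor for Cxcl1, Cxcl2 and related chemokines, had 98.3 TPM in replicate 1 and 89.8 TPM in replicate 2, from 27649 and 25443 expected counts. It ranked 100 among the nuclear protein-coding genes by mean TPM. Cxcr4, the receptor for Cxcl12, had 89.2 TPM in replicate 1 and 74.9 TPM in replicate 2, from 14032 and 11869 expected counts, and ranked 128. The 2 receptors together made up 70.8% of the summed TPM of the 9 members in replicate 1 and 68.8% in replicate 2 (69.8% ± 1.40, SD, n = 2).

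The order of Cxcr2 and Cxcr4 depended on the table. On the log2(TPM + 1) scale, Cxcr2 exceeded Cxcr4 by 0.14 in replicate 1 and by 0.26 in replicate 2 (0.20 ± 0.08, SD, n = 2). The deposited alignment-free table gave Cxcr2 141 TPM and Cxcr4 149 TPM in replicate 1, and 124 and 120 TPM in replicate 2, a mean log2 difference of -0.015 ± 0.085. The 2 genes' ranges overlapped there and did not in the main table. By CPM, counts scaled to the library total and not divided by length, Cxcr2 had 1221 and Cxcr4 620 CPM in replicate 1, and 1185 and 553 CPM in replicate 2.

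**Figure D1:**
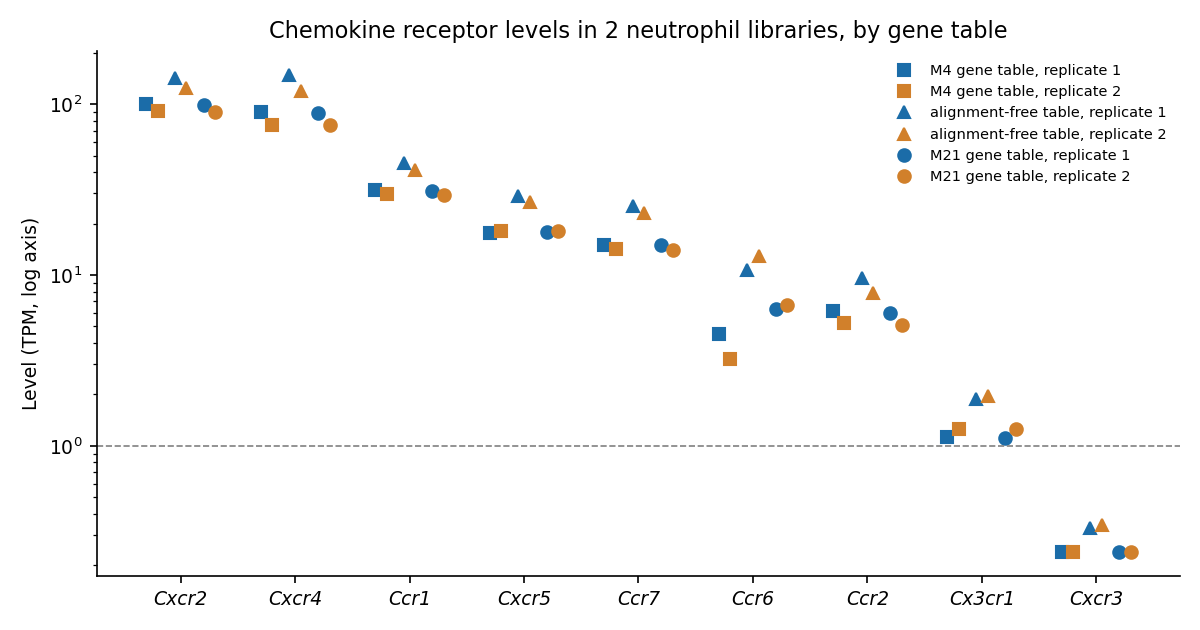
TPM of each member (log axis) in replicate 1 (blue) and replicate 2 (orange), from the GENCODE M4 gene table (squares), the alignment-free table (triangles) and the main GENCODE M21 gene table (circles); the dashed line marks a TPM of 1. Cxcr3 lies below the line in all 3 tables, and Ccr6 is the member whose level depends most on the table.

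The windows just before the annotated starts of these 2 genes are shown because they lead the family and differ in base composition. They hold the 250 bases upstream of each RefSeq start on GRCm38.p6, read 5′ to 3′ towards the gene. The RefSeq start lies 3 bases from the GENCODE start of Cxcr2-202 and 9 bases from that of Cxcr4-201, the transcripts that carry most of each gene's TPM. Capitals mark matches, on either strand, to TATAAA, the letters of a TATA box, or to GGGCGG, those of a GC box.
Cxcr2, chr1:74153744-74153993, plus strand: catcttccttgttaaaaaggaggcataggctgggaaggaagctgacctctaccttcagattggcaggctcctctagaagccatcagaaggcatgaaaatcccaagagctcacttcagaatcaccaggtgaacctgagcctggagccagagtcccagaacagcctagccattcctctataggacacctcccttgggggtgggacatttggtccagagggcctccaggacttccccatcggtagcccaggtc
Cxcr4, chr1:128592300-128592549, minus strand: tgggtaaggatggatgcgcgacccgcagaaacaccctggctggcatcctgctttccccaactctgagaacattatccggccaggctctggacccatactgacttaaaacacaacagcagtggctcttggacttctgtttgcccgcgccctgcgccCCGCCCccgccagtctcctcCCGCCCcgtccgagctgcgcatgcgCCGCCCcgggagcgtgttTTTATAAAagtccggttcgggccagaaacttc
The Cxcr4 window held 3 GC box matches, which on this strand read as the reverse complement, and 2 TATA box matches, which overlap on opposite strands. It had 61.2% G or C and 19 CpG pairs. Neither motif was found in the Cxcr2 window, which had 54.4% G or C and 1 CpG pair. Of 32851 windows of the same length, 12.4% held TATAAA and 32.7% held GGGCGG. A match describes the letters only, and binding was not measured. Cxcr5 and Ccr7 had no entry in the promoter table.

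Ccr1, the receptor for Ccl3, Ccl6 and Ccl9 among others, was the third member in order. Its level was 31.1 TPM in replicate 1 and 29.3 TPM in replicate 2 (30.2 ± 1.26, SD, n = 2), and it ranked 450 among the protein-coding genes. Its libraries were close, with 358 and 359 CPM. Cxcr4 exceeded Ccr1 by 1.41 ± 0.12 on the log2(TPM + 1) scale, and Ccr1 exceeded Cxcr5 by 0.72 ± 0.07, both far beyond the spread over the 2 libraries.

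Receptors of lymphocyte homing came next. Cxcr5, which binds Cxcl13 and leads B cells into follicles, had 17.8 TPM in replicate 1 and 18.1 TPM in replicate 2, from 4183 and 4324 expected counts. Ccr7, which binds Ccl19 and Ccl21 and brings lymphocytes and dendritic cells into lymph nodes, had 14.9 and 14.03 TPM. Cxcr5 exceeded Ccr7 by 0.29 ± 0.07 on the log2(TPM + 1) scale, against 0.27 ± 0.08 on M4 and 0.19 ± 0.02 in the alignment-free table. Ccr6, the receptor for Ccl20, had 6.31 TPM in replicate 1 and 6.71 TPM in replicate 2, from 575 and 465 expected counts. Cxcr5 is also listed beside the gene Bcl9l on the opposite strand, with 110 bases of shared exon. No source used here says whether strand was used in counting, so reads from that stretch cannot be assigned with certainty.

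Transcripts that mark B cells were plentiful in the same libraries. All 10 B-cell markers were detected, with a summed level of 682 TPM in replicate 1 and 621 TPM in replicate 2, a mean of 276 TPM for Ighm, 82.0 TPM for Ighd and 14.9 TPM for Cr2, the lowest. None was at 0. Of 10 T-cell markers 9 were detected, with sums of 37.5 and 36.9 TPM, led by Cd3g at 7.18 and Trbc2 at 6.49 TPM, and Cd4 was lowest at 0.58. All 10 neutrophil markers were detected, with sums of 2495 and 2527 TPM, led by S100a9 (1199 TPM) and S100a8 (749 TPM), and Ly6g was lowest at 2.10 TPM. The part of B or T cells in the levels of Cxcr5, Ccr7, Ccr6 and Cxcr4 was not tested.

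The monocyte receptors followed in the TPM order of the main table, although Ccr2 lay above Ccr6 on M4. Ccr2, the receptor for Ccl2, had 6.02 TPM in replicate 1 and 5.12 TPM in replicate 2, from 1915 and 1651 expected counts. Cx3cr1, the receptor for the membrane-bound chemokine Cx3cl1, had 1.11 and 1.26 TPM from 375 and 429 expected counts, just above the detection limit. Ccr2 exceeded Cx3cr1 by 1.59 ± 0.21 on the log2(TPM + 1) scale. Of 10 monocyte markers 8 were detected, with sums of 112 TPM in replicate 1 and 109 TPM in replicate 2. Ctss, which many myeloid cells also transcribe, led them at a mean of 77.2 TPM, followed by Csf1r at 7.25, and Ace was lowest at 0.53. None was at 0, and the part of monocytes in the levels of Ccr2 and Cx3cr1 was not tested.

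Cxcr3, the receptor for Cxcl9, Cxcl10 and Cxcl11, alone among the 9 members fell short of 1 TPM. It had 0.24 TPM and 37 expected counts in each library and ranked 10172 of 22015 protein-coding genes. The bounds deposited with that TPM ran 0.169 to 0.323 in replicate 1 and 0.168 to 0.320 in replicate 2. Those bounds need not hold the TPM itself: for Cxcr2 they ran 95.7 to 97.9 and 87.4 to 89.6, under its TPM in both libraries. Rescaled so that nuclear protein-coding genes alone fill the TPM scale, it reached 2.72 and 2.87 and passed the detection rule. Natural killer markers were also low, with 2 of 8 detected and sums of 7.66 and 7.50 TPM. Gzma and Klrd1 led them at 3.33 and 2.29 TPM, Eomes was lowest at 0.165 TPM, none was at 0, and the part of these cells in Cxcr3 was not tested.

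Ccr6 and Ccr2 were the neighbours whose order was least secure. In the main table Ccr6 exceeded Ccr2 by 0.06 in replicate 1 and by 0.33 in replicate 2 on the log2(TPM + 1) scale (0.20 ± 0.19, SD, n = 2), a mean about equal to its spread. On the GENCODE M4 gene models Ccr6 had 4.51 and 3.23 TPM, against 6.31 and 6.71 TPM in the main table, and lay below Ccr2 by a mean of -0.46 ± 0.13. The alignment-free table put Ccr6 above Ccr2, by 0.40 ± 0.36. By CPM, not divided by length, Ccr2 had 84.6 in replicate 1 and 76.9 in replicate 2, against 25.4 and 21.7 for Ccr6. In the main table the ranges over the 2 libraries did not overlap for any of the 8 pairs of neighbours, this one included.

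Ccr6 had more counts but a lower TPM in replicate 1 than in replicate 2, and the length assigned to the gene differed too. Replicate 1 had 575 expected counts over an effective length of 932 bases, and replicate 2 had 465 over 705 bases. The 2 short Ccr6 transcripts, Ccr6-207 of 419 bases (annotated with an incomplete coding end) and the non-coding Ccr6-209 of 369 bases, took 33.7% of the gene's TPM in replicate 1 and 53.2% in replicate 2. They rested on only 51.2 and 85.6 expected counts. Ccr6-202, which carries the full coding sequence, took 49.9% in replicate 1 and 28.0% in replicate 2. The alignment-free table gave the 2 short transcripts 43.7% and 58.1%. Without them, Ccr6 stood at 4.19 TPM in replicate 1 and 3.14 TPM in replicate 2.

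Ccr2 TPM was also spread over several transcripts, all 4 of which hold the same length of coding sequence. Ccr2-202, a transcript of a single exon, took 54.5% in replicate 1 and 47.3% in replicate 2. Ccr2-201 took 27.9% and 19.0%, Ccr2-204 took 9.89% and 20.8%, and Ccr2-203 took 7.78% and 12.8%. In the alignment-free table Ccr2-202 had 37.1% and 29.4%, and Ccr2-201 had 36.2% and 27.8%, so the first 2 transcripts were nearly level there.

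**Figure D2:**
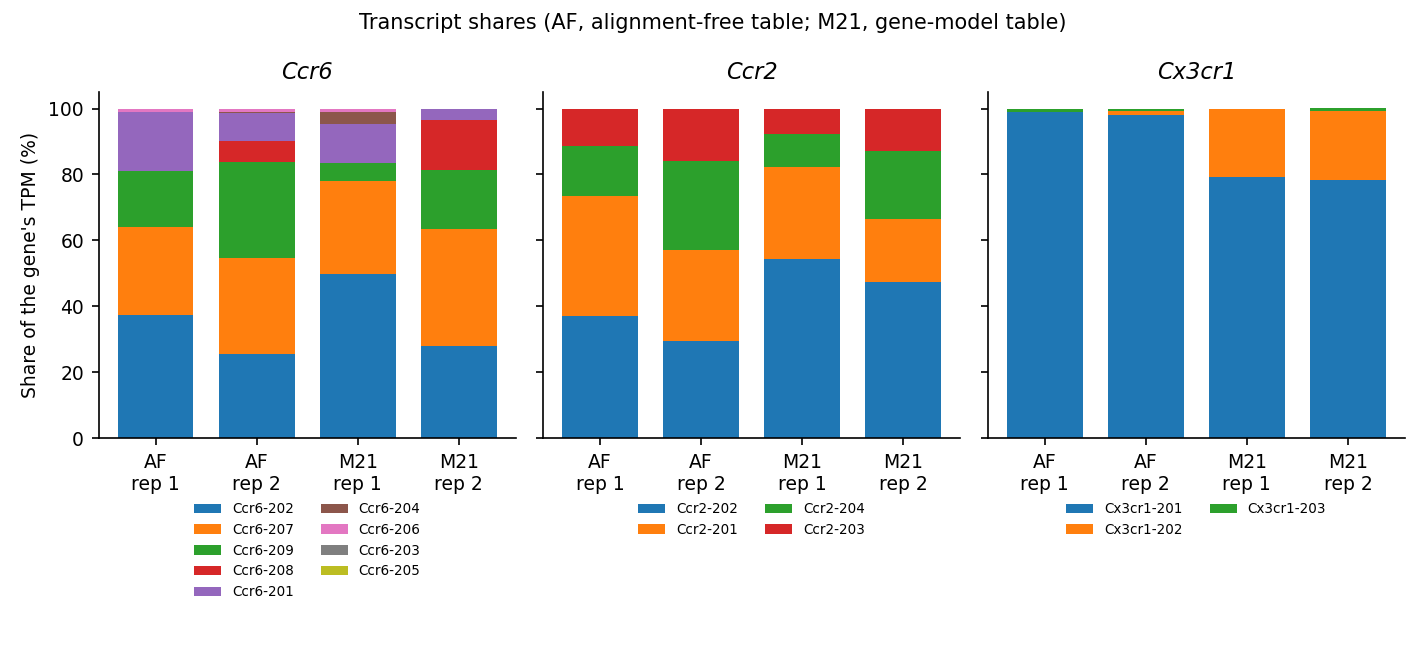
Share of the gene's TPM (%) taken by each annotated transcript of Ccr6, Ccr2 and Cx3cr1, in the alignment-free table (AF) and in the main transcript table (M21), for replicates 1 and 2. The 2 short transcripts Ccr6-207 and Ccr6-209 take 33.7% and 53.2% in the main table, and Cx3cr1-202 takes 20.9% in both libraries of the main table and at most 1.18% in the alignment-free table.

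Cx3cr1-202 was a share on which the tables differed. This transcript begins near the main start of the gene and ends far beyond it, spanning chr9:119901616-120068283 on the minus strand. It took 20.9% of Cx3cr1 TPM in each library of the main table, but 0 and 1.18% in the alignment-free table, where Cx3cr1-201 held 99.1% and 98.0%. Most of the other members had 1 dominant transcript. Cxcr2-202 took 99.4% and 99.5%, Cxcr5-201 took 96.3% and 98.8%, and Ccr1, Ccr7 and Cxcr3 have a single annotated transcript.

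Cxcr4 has a pair of annotated transcripts that differ in the first amino acids, a part that contacts Cxcl12. Cxcr4-201 took 96.7% of Cxcr4 TPM in replicate 1 and 96.2% in replicate 2, and Cxcr4-202 took 3.34% and 3.84%. In the alignment-free table Cxcr4-202 took 5.41% and 5.61%. The first 42 coding bases of each are shown because the difference lies at the end of exon 1, whose coding part is in capitals. They lie at chr1:128589881-128592209 for Cxcr4-201 and chr1:128589875-128592209 for Cxcr4-202 on the minus strand, introns included.
Cxcr4-201: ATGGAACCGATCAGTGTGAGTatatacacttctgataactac
Cxcr4-202: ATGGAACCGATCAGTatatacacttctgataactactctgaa
The coding part of exon 1 is 21 bases long in Cxcr4-201 and 15 in Cxcr4-202, and the bases of the next exon follow directly in both. The Cxcr4-202 model has 902 bases, with an incomplete coding end.

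Exact stretches of 50 bases shared with other genes were found outside the coding sequence in Cxcr2 (6.68% of start positions), Cxcr5 (1.86%) and Cx3cr1 (1.06%). Cxcr4, Cxcr3, Ccr1, Ccr6 and Ccr7 shared none.

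The receptor levels of the 2 libraries were compared by a fixed rule of size. By the rule of a (TPM + 1) fold of at least 2, asked only of genes that reached 1 TPM in either library and 50 expected counts in the higher one, 0 of the 8 members that could be tested differed between them, and 0.923% of all 9097 genes tested did. The median log2 CPM ratio of replicate 1 over replicate 2 was -0.0031 over the 9 members and 0.018 over 14222 genes with at least 10 expected counts in both. With so low a share over all genes, 0 of 8 does not set the members apart. These are comparisons of 2 libraries and not of conditions.

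On counting error alone, 6 of the 9 members had a 95% interval of the CPM ratio that did not hold 1, against 37.1% of all genes that reached 10 expected counts in each. Members with more counts have narrower intervals, so this share moves with depth. Cxcr4 had a ratio of 1.12 (1.09 to 1.15), Cxcr2 of 1.03 (1.01 to 1.05), Ccr2 of 1.10 (1.03 to 1.18) and Ccr6 of 1.17 (1.04 to 1.33). In the alignment-free table the Ccr6 ratio was 0.950 (0.855 to 1.06), on the other side of 1 with an interval that held it. That table left 5 of the 9 members with an interval without 1, against 35.7% of its genes, and the M4 table left 6, against 38.2%. Cxcr5, at 0.917 (0.879 to 0.957), and Cx3cr1, at 0.829 (0.720 to 0.954), were lower in replicate 1. Ccr1 (0.998), Ccr7 (0.998) and Cxcr3 (0.948, 0.585 to 1.54) had intervals that held 1.

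**Figure D3:**
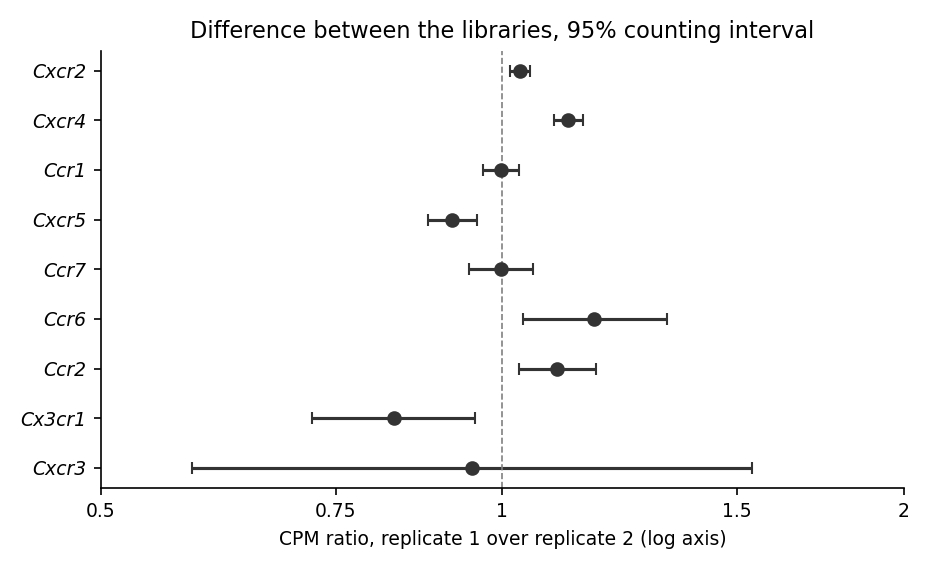
CPM ratio of replicate 1 over replicate 2 (log axis) for each member, with the exact conditional binomial 95% interval, which covers counting error only. All ratios lie between 0.829 and 1.17, and the interval of Cxcr3, with 37 counts in each library, is the widest.

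The other chemokine receptors had low levels, though the division of the family into members and others was made with earlier results of these data known and supports no contrast between them. Of 10 other chemokine receptors only Cxcr1, a second receptor of the Cxcr2 kind, was detected in the main table, at 1.72 and 1.36 TPM. Ccr3, the eotaxin receptor of eosinophils, had 0.87 TPM in both libraries there. In the alignment-free table it had 1.30 and 1.34 TPM and passed the rule. Ccr8 and Ccr10 had no count, which allows up to 0.132 CPM in replicate 1 and 0.140 CPM in replicate 2 with 3 counts as the limit. The 10 together summed to 3.69 and 3.24 TPM, against 265 and 240 TPM for the 9 members. Among eosinophil markers 2 of 6 were detected, Siglecf at a mean of 2.48 and Il5ra at 2.33 TPM, with sums of 4.74 and 5.50 TPM. Prg3 had no count, and the part of eosinophils in Ccr3 was not tested.

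None of 5 atypical receptors, which lack G protein signalling, was detected in both libraries in the main table. Ccrl2 came closest with 1.07 TPM in replicate 1 and 0.98 TPM in replicate 2, from 213 and 183 expected counts. In the alignment-free table it had 1.63 and 1.46 TPM and passed the rule. Ackr2 had 0.39 and 0.02 TPM and Ackr4 0.02 and 0.01 TPM, on 8 or fewer counts each. Ackr1 and Ackr3 had no count.

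The ligands of the members were detected about as often as protein-coding genes at large, of which 34.9% passed the same rule. Of 22 distinct ligands 7 passed, and for 9 both libraries had no count in the main table. The ligands of Ccr1 stood highest: Ccl6 had 102 and 92.9 TPM, above Ccr1 itself, while Ccl9 had 2.63 and 4.25 TPM, Ccl3 2.20 and 2.38 TPM, Ccl5 1.31 and 1.14 TPM and Ccl7 no count. Among the ligands of Cxcr2, Ppbp, a product of platelets, had 8.70 and 8.77 TPM and Cxcl2 had 7.37 and 6.24 TPM. Cxcl5 had 0.07 and 0.02 TPM, Cxcl3 0.03 and 0.01 TPM and Cxcl1 no count.

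Of 8 platelet markers 5 were detected, with sums of 24.9 and 25.4 TPM. Ppbp is one of them, Tubb1 followed at 5.57 TPM, and Gp6 was lowest at 0.335 TPM. None was at 0, and the part of platelets in Ppbp was not tested.

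For Cxcr4, the gene of its main ligand Cxcl12 had 0 and 2 expected counts, while Mif, a cytokine that also binds Cxcr4, had 4.65 and 5.11 TPM. The single listed ligands of Cxcr5 (Cxcl13), Ccr6 (Ccl20) and Cx3cr1 (Cx3cl1) had no count, and neither had Ccl19 and Ccl21a, the ligands of Ccr7. Among ligands of Ccr2, Ccl7 and Ccl12 had no count and Ccl2 had 0.05 and 0.01 TPM. Of the ligands of Cxcr3, Cxcl10 had 0.53 and 0.21 TPM, Cxcl9 0.01 in both and Cxcl11 no count in the main table. The alignment-free table gave Cxcl11 62.9 and 41.4 counts, or 0.48 and 0.34 TPM, and the division of reads behind this difference was not tested. Of the other 8 ligands with no count in the main table, none had more than 2 counts there.

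**Figure D4:**
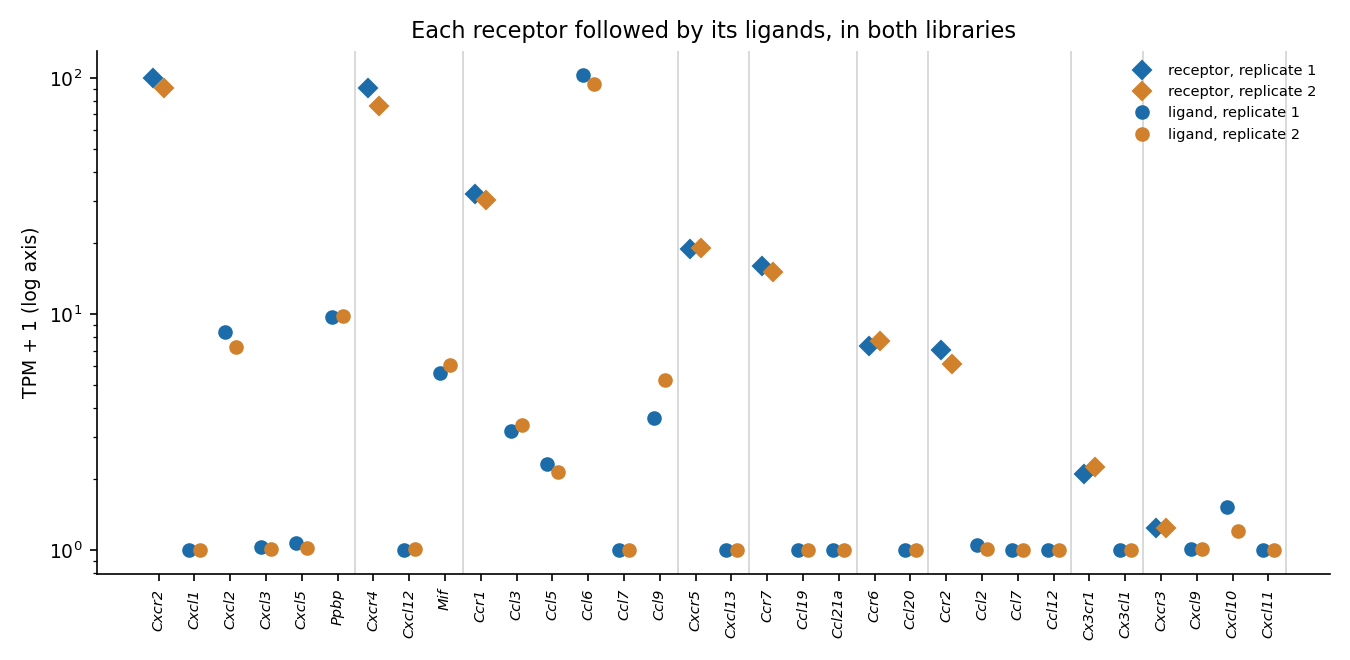
TPM + 1 (log axis) of each receptor (diamonds) followed by its listed ligands (circles), for replicates 1 (blue) and 2 (orange). Ccl6 reaches 102 and 92.9 TPM, while 9 of 22 distinct ligands had no count in this main table and sit at the bottom of the axis.

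All 10 listed genes that carry the receptor signal were detected in both libraries, against 34.9% of nuclear protein-coding genes by the same rule. The list was drawn up with earlier results of these data known, so it does not stand for the whole pathway. Gnai2, the main inhibitory G protein alpha subunit of leukocytes, had 92.9 and 85.6 TPM, between Cxcr2 and Cxcr4 in each library. Dock2, which activates Rac during migration, had 42.3 and 37.8 TPM. The lowest was Pik3cg, the catalytic subunit of a G protein-driven lipid kinase, at 5.84 and 4.96 TPM.

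Of 11 listed genes that switch the receptors off, 10 were detected, against the same 34.9% of nuclear protein-coding genes. This list too was chosen with earlier results known. The kinase Grk2, which phosphorylates active receptors, led them with 73.0 TPM in replicate 1 and 56.4 TPM in replicate 2. Grk2 had 515 and 516 CPM, over effective lengths of 1636 and 2001 bases. The G protein regulator Rgs2 followed with 37.8 and 34.8 TPM. Grk3, a close relative of Grk2, was the exception in the main table with 0.74 and 0.87 TPM. In the alignment-free table Grk3 had 1.56 and 1.48 TPM and passed the rule.

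Dendritic cell markers and red-cell markers were the remaining lists. One of 6 dendritic cell markers passed, Cd209a at 1.13 TPM, with sums of 2.03 and 2.01 TPM; Clec9a had 0.405 TPM and Siglech was lowest at 0.035. Of 7 red-cell markers 5 were detected, with sums of 4329 and 4264 TPM, led by Hba-a2 (2894 TPM) and Hbb-bs (852 TPM). No marker of these 2 lists was at 0, and the part of these cells in the levels of the receptors was not tested.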

How the data were processed

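Each library started from 100 ng of total RNA (ScriptSeq v2 kit; size range 200 to 1000, per the labels). The authors deposited gene tables on GENCODE M21 (main) and M4, both on mm10, with an expected count and a TPM per gene, per the file headers. Bounds of each TPM, treated as a score, and effective lengths were also deposited by the authors. The share of a gene's TPM taken by each transcript is a deposited percent. An alignment-free transcript table with estimated counts and TPM was deposited too. Tables were scaled separately, so levels set across them also reflect that scaling. Which programs made the tables is not given in the sources used here.

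Symbols and coordinates came from GENCODE M21 (55536 genes, 55450 with a symbol). Entries with only a number held 1.63e-04% and 2.16e-04% of the counts and were left out, as were 97 spike-in entries. The members and all lists were chosen with earlier results of these data known. The genes named are the members, and from each other list the 2 highest by mean TPM, the lowest, those with no count, and all genes of lists of 5 or fewer. Some genes that meet this rule are left unreported. Expected counts were rounded for exact conditional binomial 95% intervals of count ratios, which cover counting error only, since PCR reads are not independent molecules. TMM factors came from edgeR 4.0.16 and size factors from DESeq2 1.42.0 (R 4.3.3). Counts over 14222 genes differed between the libraries with a chi-square of 24.6 per degree of freedom, so they are separate libraries. A planned comparison of protein sequences was replaced by coding bases, aligned with Biopython 1.88. Other steps used Python 3.11.15, numpy 2.4.6, pandas 2.3.3, scipy 1.17.1 and matplotlib 3.10.9.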

Additional observations from a re-analysis of the deposited data

How the results depend on the processing

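The count of 8 detected members ranged from 7 at a TPM of at least 5 to 9 at a TPM of at least 0.1, at 10 expected counts, or with TPM scaled to nuclear protein-coding genes, and was 8 in both other tables and without either replicate. The log2 difference of Cxcr2 over Cxcr4, 0.20 in the main table, was -0.015 in the alignment-free table and 1.04 in CPM not divided by length, and lay between 0.14 and 0.26 without 1 replicate. The cause of the change in the alignment-free table was not tested. That of Ccr6 over Ccr2, an alternative added after seeing the data, was -0.46 on GENCODE M4 and 0.40 in the alignment-free table, against 0.20 in the main table; the cause was not tested. The log2 count ratio of Ccr6, replicate 1 over replicate 2, was -0.074 in the alignment-free table, against 0.23 in the main table, a comparison also added after seeing the data; the cause was not tested. No member differed between the libraries at a fold of 1.5, with a pseudocount of 0.1, without the filter, or in the other tables. The median log2 ratio over the members stayed between -0.022 and -0.00075 under other normalizations and tables. Member levels on M4 were 0.595 to 1.02 times, and by the alignment-free estimate 1.41 to 1.82 times, those of the main table. No paired analysis was possible because the libraries form a single group. Depth limits Cxcr3, with 37 counts a library.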
